A study of Rattus norvegicus with 6 samples.

Results

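The genes described here are 10 members of the semaphorin 3 guidance system, 4 secreted ligands (Sema3a, Sema3c, Sema3d and Sema3e), 4 plexin receptors (Plxna1, Plxna2, Plxna4 and Plxnd1) and both neuropilin co-receptors (Nrp1 and Nrp2), picked by symbol from 32883 features and followed across classes of nuclei that were named from other marker genes. The samples are single-nucleus RNA-seq libraries of the nucleus accumbens shell, part of the ventral striatum, from Long-Evans rats of 90 to 100 days that were housed in same-sex pairs; the labels name no treatment. There were 3 male pools and 3 female pools, and each pool joined tissue of 4 animals of 1 sex, so that the replicate is a pool and not an animal. The p-values below for groups of libraries measure the spread between pools. Those between classes measure the spread of class differences within pools. The wording of the labels splits the libraries into set A, which is male pool 1 with female pool 3, and set B, which is the other 4. Values by library are written for the female pools in the order 1, 2 and 3 and then for the male pools in the same order.

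Class 3 semaphorins are secreted proteins that steer axons, dendrites and migrating cells and that shape synapses in the mature brain. Most of them bind a neuropilin, which holds the ligand, and signal through a plexin-A, whose cytoplasmic part acts on small GTPases and the cytoskeleton. Sema3e is the exception: it can bind Plxnd1 directly, and in mouse striatum this pair is known for setting the synapses between thalamic axons and direct-pathway neurons.

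The 6 libraries kept 34362 nuclei with 188073584 unique molecular identifiers (UMIs), from 10776831 to 77638150 UMIs per library. The set A libraries stood apart: 1.55% and 2.28% of their barcodes were over the limit for mitochondrial UMIs, against 13.1% to 40.7% in set B, and they held 1637 and 423 of the 2062 glutamatergic neuron-like nuclei. Of the kept barcode sequences 136 occurred in more than 1 library. Levels are given as CPM, the UMIs of a gene scaled in the usual way to 1 fixed total of UMIs for its class in each library. They are compared between classes and not between genes, since a level of 1 gene against another is not on a scale per length. A lower level in a class cannot be told apart into fewer expressing nuclei and less RNA per nucleus.

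Classes were compared where every library held at least 20 nuclei, which left 13. D1 and D2 MSN-like nuclei are the medium spiny projection neurons of the direct and indirect pathway (5216 and 3433 nuclei). Drd2 marked the D2 class at 841 CPM over all libraries against 31.5 in the D1 class, while Drd1 itself was low in the D1 class, at 20.3 CPM against 2.24. The D1 list held Drd1, Tac1, Ebf1, Isl1 and Pdyn. In each cluster of the D1 class 4 of these 5 were higher than elsewhere, and none was among its top 10 genes by fold. Drd3 MSN-like nuclei (1204) held Drd3 at 474 CPM, but their level of the MSN marker Pde10a was 405 CPM against 3038 in D1 MSN-like nuclei, so the name MSN is weakly backed there. Drd3 is also not particular to this class. It was among the top 10 genes by fold of cluster 11, a cluster of the D1 class, and not among those of the Drd3 class. The glia were oligodendrocyte-like (3475), astrocyte-like (2469) and oligodendrocyte precursor-like nuclei (OPC-like, 892), and Sst/Npy interneuron-like nuclei (414) were the only named interneurons tested. A further 6 clusters are called by number: their top 10 genes by fold held Sema3c, Gbx1, Lhx8 and Lhx6 in cluster 1, Bnc2, Reln and Ebf1 in cluster 7, Chst9, Grm8 and Oprm1 in cluster 9, Mdfic, Ntng1 and Rxrg in cluster 10, immediate early genes such as Fosb and Npas4 in cluster 16, and Il1rapl2, Egfr, Kit and Kcnc2 in cluster 19. The 10 genes and 46 other semaphorin pathway genes were left out of the clustering, so they did not set these groups.

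All 4 ligand genes lie on rat chromosome 4, in the order Sema3c, Sema3e, Sema3a and Sema3d in the RefSeq annotation, and the class with the highest level differed for each of them. The start-site sequences of 3 of these neighbours, and of Plxnd1, the receptor of Sema3e on the same chromosome, are printed to show how unlike these promoters are in base composition. Each holds 250 bases before and 50 bases after the RefSeq start on build GRCr8 (the counts come from build rn6, so these positions hold for the sequence alone), on the minus strand, 5′ to 3′, with every CpG dinucleotide in capitals.
Sema3c: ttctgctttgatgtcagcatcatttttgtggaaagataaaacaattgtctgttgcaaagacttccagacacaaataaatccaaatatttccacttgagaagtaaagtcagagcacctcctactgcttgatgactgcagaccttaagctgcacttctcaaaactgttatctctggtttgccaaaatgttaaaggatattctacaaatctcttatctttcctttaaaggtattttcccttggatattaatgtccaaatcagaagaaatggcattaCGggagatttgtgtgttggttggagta
Sema3e: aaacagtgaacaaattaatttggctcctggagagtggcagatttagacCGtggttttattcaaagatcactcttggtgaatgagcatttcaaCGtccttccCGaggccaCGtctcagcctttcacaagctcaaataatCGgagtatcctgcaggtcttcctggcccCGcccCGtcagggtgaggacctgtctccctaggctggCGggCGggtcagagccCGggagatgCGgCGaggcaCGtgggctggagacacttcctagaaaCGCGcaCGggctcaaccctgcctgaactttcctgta
Sema3d: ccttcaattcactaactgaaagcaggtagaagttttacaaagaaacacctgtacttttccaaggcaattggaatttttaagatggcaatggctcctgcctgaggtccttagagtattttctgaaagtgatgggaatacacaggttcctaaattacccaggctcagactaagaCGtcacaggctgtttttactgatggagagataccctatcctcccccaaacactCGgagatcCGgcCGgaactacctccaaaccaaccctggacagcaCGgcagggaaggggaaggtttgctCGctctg
Plxnd1: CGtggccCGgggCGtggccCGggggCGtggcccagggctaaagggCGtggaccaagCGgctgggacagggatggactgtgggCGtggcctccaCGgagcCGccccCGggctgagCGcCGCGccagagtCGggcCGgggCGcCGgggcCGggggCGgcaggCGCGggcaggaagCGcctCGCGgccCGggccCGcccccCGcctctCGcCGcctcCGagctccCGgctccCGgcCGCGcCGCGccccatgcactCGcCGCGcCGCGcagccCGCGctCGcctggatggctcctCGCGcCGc
CpG was searched as the letters CG, which read the same on both strands and cannot overlap. The Sema3c window, at chr4:18699578-18699877, held 1 CpG and the Sema3d window, at chr4:23460922-23461221, held 6. The Sema3e window, at chr4:21510325-21510624, held 16, and the Plxnd1 window, at chr4:150715138-150715437, held 48. Over 33469 rat promoters of the same length 94.5% held a CpG and the median count was 7, and 5.47%, 43.7%, 69.5% and 99.0% had fewer than Sema3c, Sema3d, Sema3e and Plxnd1, in that order. The RefSeq promoter table used here held such a window for 7 of the 10 genes. No data on these promoters were measured here.

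Each class was set against D1 MSN-like nuclei within libraries, and OPC-like against oligodendrocyte-like nuclei, to ask where each gene was higher or lower. A gene was called at an adjusted p under 0.05 (edgeR's quasi-likelihood test, adjusted over all 11610 genes tested) with an absolute log2 fold change of at least 1. All tested classes were fitted together, with the library as a block and 1 estimate of the spread shared by all of them. The class values of 1 library are not independent, so the size of the smallest p-values rests on that shared fit. All 10 genes passed the filter on low counts. Against D1 MSN-like nuclei, 1 of the 10 was called in D2 MSN-like nuclei, where 1.52% of all genes were called. The count was 7 in Drd3 MSN-like nuclei (15.8% of all genes), 6 in Sst/Npy interneuron-like nuclei (16.8%), 6 in OPC-like nuclei (28.0%), 6 in astrocyte-like nuclei (35.5%) and 6 in oligodendrocyte-like nuclei (39.9%). Among the numbered clusters it was 7 in cluster 1 (18.7%), 7 in cluster 9 (8.99%), 6 in cluster 7 (12.6%), 5 in cluster 19 (17.4%) and 4 in cluster 10 (5.75%). In cluster 16 none of the 10 was called by edgeR or DESeq2 and 1 had an unadjusted p under 0.05 in either, where 4.19% of all genes were called. Between OPC-like and oligodendrocyte-like nuclei 6 were called (26.4%). Of the 67 calls in all, 62 went the same way in each of the 6 libraries. The calls were made from these same libraries, so this count is not a replication.

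**Figure D1:**
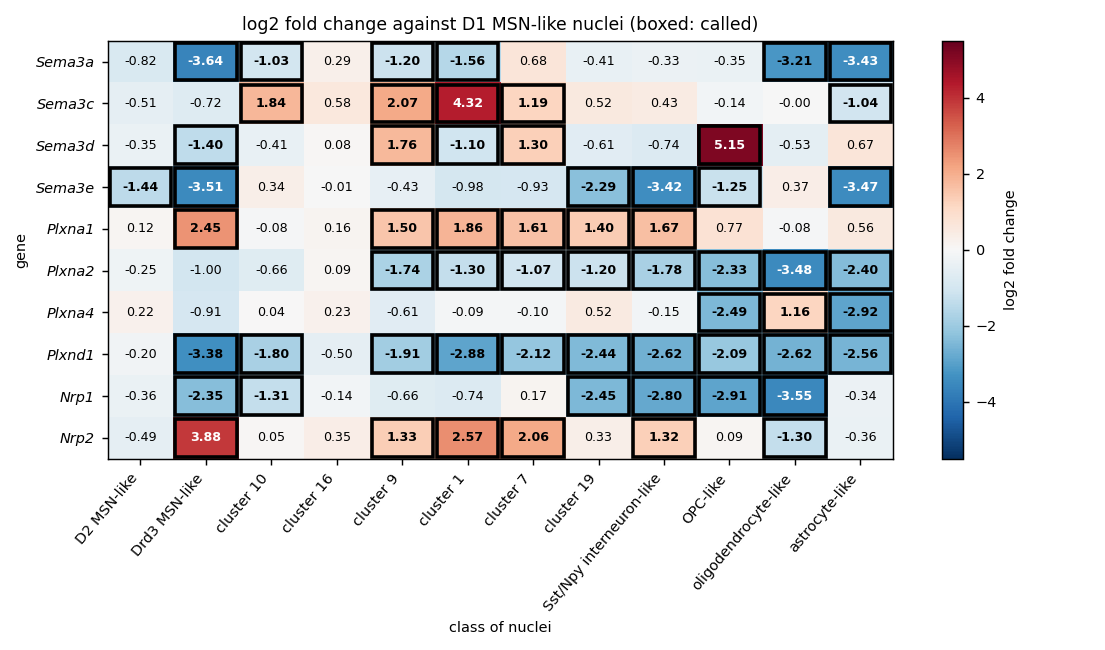
Fitted log2 fold change of each of the 10 genes (rows) in each class of nuclei (columns) against D1 MSN-like nuclei of the same libraries, with called values boxed. Sema3d in OPC-like nuclei (5.15), Sema3c in cluster 1 (4.32) and Nrp2 in Drd3 MSN-like nuclei (3.88) have the highest values, and Plxnd1 is below 0 in all 12 columns.

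Sema3d, a secreted ligand that binds neuropilins, was highest in OPC-like nuclei. Its level in OPC-like nuclei was 482, 510 and 410 CPM in females and 400, 520 and 448 in males. The second class in order, cluster 9, ranged from 27.5 to 46.8 CPM, so the groups did not overlap. The log2 fold change was 5.15 against D1 MSN-like nuclei (SE 0.12, edgeR adjusted p = 3.39e-52) and 5.68 against oligodendrocyte-like nuclei (SE 0.17, adjusted p = 5.7e-44), which stood at 2.64 to 9.04 CPM. With each nucleus thinned to 1000 UMIs, 33.5% of 836 OPC-like nuclei had a Sema3d UMI (95% Wilson interval 30.4% to 36.8%), against 0.616% of 3084 oligodendrocyte-like nuclei, which serve as the background here. The unthinned shares were 57.0% and 1.32%, at median depths of 2234 and 1713 UMIs, and 56 and 391 nuclei were too shallow to thin. Such intervals cover counting error only. Sema3d was also called higher in cluster 9 (1.76, SE 0.15) and cluster 7 (1.30, SE 0.15), and lower in Drd3 MSN-like nuclei (-1.40, SE 0.36) and cluster 1 (-1.10, SE 0.24), all by edgeR with adjusted p from 5.99e-17 to 0.000791. The call in cluster 1 was lost without female pool 3 (-0.88) and with doublets kept (-0.996), and that in Drd3 MSN-like nuclei in a coarser clustering, at Leiden resolution 0.6 (-0.75), where that class held 1372 nuclei.

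Sema3c, which signals through Nrp1 and Nrp2, was highest in cluster 1, the neurons with Lhx8 and Gbx1. It stood there at 303, 152 and 278 CPM in females and at 315, 255 and 268 in males. Female pool 2 was low, with 27 nuclei in this cluster, and still lay above every library of the next class, cluster 9, at 44.5 to 89.9 CPM. Against D1 MSN-like nuclei (7.63 to 17.0 CPM) the log2 fold change was 4.32 in cluster 1 (SE 0.14, edgeR adjusted p = 8.38e-41), 2.07 in cluster 9 (SE 0.19), 1.84 in cluster 10 (SE 0.20) and 1.19 in cluster 7 (SE 0.19). The call in cluster 7 was lost without female pool 3 (0.90), and the only lower call, in astrocyte-like nuclei (-1.04, SE 0.37, adjusted p = 0.00969), was lost without male pool 1 (-0.87), without male pool 2 (-0.89) and with DESeq2's size factors (-0.99). After thinning to 1000 UMIs, 21.2% of 1225 cluster 1 nuclei had a Sema3c UMI (95% Wilson interval 19.03% to 23.6%), against 0.697% of 2295 astrocyte-like nuclei (unthinned 56.8% and 1.46%, at median depths of 6644 and 2114 UMIs). Among classes with too few nuclei to test, vascular-like nuclei (397, with 2 in female pool 2) held Sema3c at 104 CPM over all libraries (exact 95% interval of the count 85.3 to 125).

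Sema3e was the only one of the 10 genes called between the 2 main MSN classes. D1 MSN-like nuclei held it at 297, 271 and 233 CPM in females and 206, 286 and 247 in males. D2 MSN-like nuclei held it at 124, 108 and 102 CPM in females and 76.9, 88.1 and 62.5 in males. The ranges did not overlap, and the log2 fold change of D2 against D1 was -1.44 (SE 0.19, edgeR adjusted p = 4.59e-09), lower in 6 of 6 libraries and called in all 13 alternatives. Thinned to 1000 UMIs, 18.1% of D1 and 6.55% of D2 MSN-like nuclei had a Sema3e UMI, against 2.66% of astrocyte-like nuclei (unthinned 51.5%, 26.9% and 5.22%, at median depths of 5524, 5232 and 2114 UMIs).

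The levels of Sema3e in the other classes formed a graded order. Cluster 10 (210 to 398 CPM), oligodendrocyte-like nuclei (213 to 341), D1 MSN-like nuclei and cluster 16 (161 to 373) overlapped widely, and neighbours in this order did not differ beyond their spread. Cluster 9 (132 to 234 CPM), cluster 7 (91.3 to 219), cluster 1 (43.6 to 177) and OPC-like nuclei (61.8 to 160) came next, again with ranges that overlapped. Astrocyte-like, Drd3 MSN-like and Sst/Npy interneuron-like nuclei averaged 18.7, 20.8 and 22.9 CPM, with log2 fold changes against D1 of -3.47, -3.51 and -3.42 (SE 0.27, 0.30 and 0.34), and the value of Drd3 MSN-like nuclei was -2.28 at resolution 0.6. Sema3e was also called lower in cluster 19 (-2.29, SE 0.25) and OPC-like nuclei (-1.25, SE 0.25). Clusters 1 and 7, at -0.98 and -0.93, fell just short of the fold for a call, and each passed it under some alternatives (to -1.11 without male pool 3 in cluster 1, and to -1.04 without female pool 1 in cluster 7). Within the oligodendrocyte lineage it was lower in OPC-like than in oligodendrocyte-like nuclei, by a log2 fold change of -1.62 (SE 0.25, edgeR adjusted p = 7.27e-08), the opposite order to Sema3d and Sema3a.

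Sema3a, the ligand named for collapsing growth cones, which binds Nrp1, was highest in cluster 7, the neurons with Reln, Bnc2 and Ebf1. Its level there was 116, 130 and 104 CPM in females and 124, 133 and 131 in males, against 53.7, 45.1 and 80.4 and 91.2, 55.4 and 61.8 in D1 MSN-like nuclei. Cluster 7 was higher in 6 of 6 libraries, with a log2 fold change of 0.68 (SE 0.14, edgeR adjusted p = 2.29e-05), short of the fold required for a call. D2 MSN-like nuclei lay below D1 in 6 of 6 libraries at 25.3 to 47.7 CPM (-0.82, SE 0.14, adjusted p = 5.83e-06), also short of that fold. Sema3a was called lower in Drd3 MSN-like nuclei (-3.64, SE 0.35), astrocyte-like nuclei (-3.43, SE 0.29) and oligodendrocyte-like nuclei (-3.21, SE 0.28), where the means were 3.96, 4.12 and 4.26 CPM. Without female pool 3 these values were -4.46, -4.61 and -4.01, and that of Drd3 MSN-like nuclei was -2.13 at resolution 0.6. Sema3a was also called lower in cluster 1 (-1.56, SE 0.19) and cluster 9 (-1.20, SE 0.19). The call in cluster 10 (-1.03, SE 0.18) was lost without male pool 1 (-0.74). It was 2.85 higher in OPC-like than in oligodendrocyte-like nuclei on the log2 scale (SE 0.40, adjusted p = 3.15e-09), and 3.82 higher without female pool 3.

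**Figure D2:**
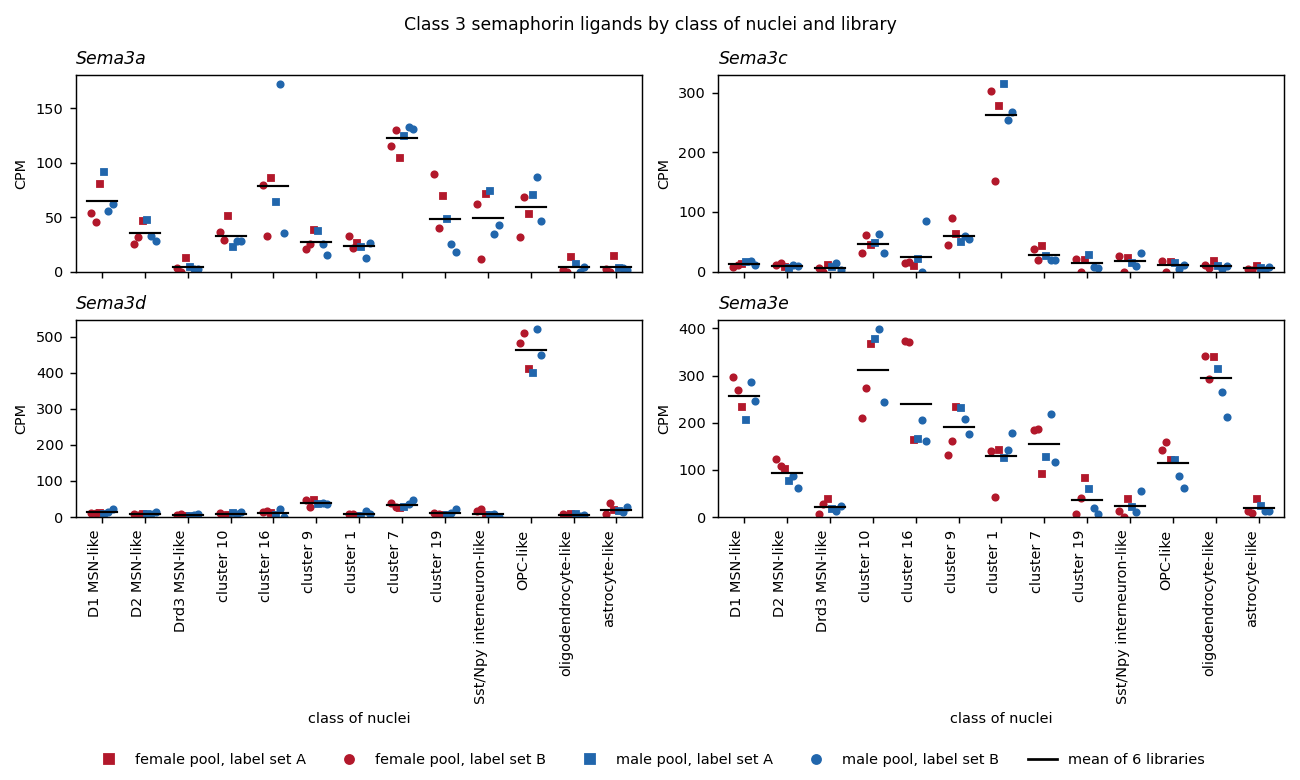
CPM (linear axis) of the 4 ligand genes in 13 classes of nuclei, 1 point per library coloured by sex and shaped by label set, with a bar at the mean of 6 libraries. The classes that lead are OPC-like nuclei for Sema3d (mean 462), cluster 1 for Sema3c (262) and cluster 7 for Sema3a (123), while Sema3e is shared by several classes with means from 240 to 312.

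Plxnd1, the receptor that Sema3e binds without a neuropilin, was highest among tested classes in D1 and D2 MSN-like nuclei. The lowest mean, in Drd3 MSN-like nuclei (3.04 CPM), rested on 13 UMIs over all libraries. Oligodendrocyte-like (3.44 CPM), astrocyte-like (3.835) and Sst/Npy interneuron-like nuclei (3.97, with 12 UMIs) were close to it, so the order among these is not read. D1 MSN-like nuclei held it at 27.2, 22.8 and 30.4 CPM in females and 34.3, 25.6 and 44.8 in males. D2 MSN-like nuclei held it at 24.1, 20.4 and 24.0 and at 31.9, 22.1 and 34.8. D1 was above D2 in 6 of 6 libraries, but the ranges overlapped and the difference did not pass (-0.20, SE 0.14, edgeR adjusted p = 0.622), unlike that of its ligand Sema3e. Of 12 contrasts against D1, Plxnd1 was called lower in 10, the exceptions being D2 MSN-like nuclei and cluster 16 (-0.50, SE 0.25, adjusted p = 0.185). The log2 fold changes ran from -3.38 in Drd3 MSN-like nuclei (SE 0.33) to -1.80 in cluster 10 (SE 0.21). The first of these was -2.37 at resolution 0.6, and that of Sst/Npy interneuron-like nuclei (-2.62, SE 0.36) was -3.90 without female pool 3. In cluster 1 female pool 2, with 27 nuclei, stood at 36.3 CPM and was the only library above its D1 level, while the others stood at 1.59 to 6.39. Blood vessels are the classical site of this receptor, and vascular-like nuclei, not tested for their small number, held 68.7 CPM over all libraries (75 UMIs, exact 95% interval of the count 54.1 to 86.2).

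Plxna2, a plexin-A that pairs with neuropilins and also binds class 6 semaphorins, was highest among tested classes in D1 MSN-like nuclei and cluster 16. Its level in D1 MSN-like nuclei was 581, 557 and 543 CPM in females and 558, 524 and 501 in males. Cluster 16 (424 to 635 CPM) and D2 MSN-like nuclei (396 to 502) followed, with no call against D1. Of the classes not tested for their small number in some libraries, vascular-like nuclei held Plxna2 at 411 CPM over all libraries, cholinergic neuron-like nuclei at 387 and glutamatergic neuron-like nuclei at 308. After thinning to 1000 UMIs, 36.1% of 316 vascular-like nuclei had a Plxna2 UMI (95% Wilson interval 31.0% to 41.5%), beside 35.6% of 3418 D2 MSN-like and 4.18% of oligodendrocyte-like nuclei (unthinned 52.4%, 83.7% and 7.94%, at median depths of 1655, 5232 and 1713 UMIs). Plxna2 was called lower in 8 contrasts, with log2 fold changes of -3.48 in oligodendrocyte-like (SE 0.20), -2.40 in astrocyte-like (SE 0.17), -2.33 in OPC-like (SE 0.20) and -1.78 in Sst/Npy interneuron-like nuclei (SE 0.19), and from -1.07 to -1.74 in clusters 7, 19, 1 and 9. In Drd3 MSN-like nuclei the log2 fold change of -0.997 (SE 0.16, edgeR adjusted p = 3.59e-07) lay just short of the call, which 10 of 13 alternatives made. OPC-like nuclei were above oligodendrocyte-like nuclei (1.15, SE 0.24, adjusted p = 3.9e-05), a call lost without male pool 1 (0.83). Female pool 2 went the other way there, at 68.5 and 162 CPM, and its 92 oligodendrocyte-like nuclei also had the highest summed level of the 6 MSN markers, 1353 CPM against 95.1 to 506 in the other libraries. The part of this in the result was not tested.

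Plxna1, the plexin-A through which Sema3a signals with Nrp1, had another order. It was low in D1 and D2 MSN-like nuclei and highest in Drd3 MSN-like nuclei, at 37.3, 27.0 and 66.0 CPM in females and 80.9, 61.0 and 51.9 in males, against 8.15 to 12.9 in D1 and 5.88 to 14.8 in D2 MSN-like nuclei. The log2 fold change of Drd3 against D1 MSN-like nuclei was 2.45 (SE 0.17, edgeR adjusted p = 1.95e-21). Calls above D1 were also made in cluster 1 (1.86, SE 0.16), Sst/Npy interneuron-like nuclei (1.67, SE 0.23), cluster 7 (1.61, SE 0.16), cluster 9 (1.50, SE 0.17) and cluster 19 (1.40, SE 0.19), and none below. All of these held in 6 of 6 libraries. Neighbours in the order of levels overlapped throughout.

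Plxna4, the plexin-A of Sema3a signalling in dendrites, stood at 403 to 519 CPM in D1 and 455 to 603 in D2 MSN-like nuclei and at means of 254 to 710 in the other tested neuron classes. Glutamatergic neuron-like nuclei, not tested since nearly all came from set A, stood at 913 CPM in female pool 3 and 840 in male pool 1. It was called lower in astrocyte-like nuclei (-2.92, SE 0.23) and OPC-like nuclei (-2.49, SE 0.25), where the means were 59.9 and 83.1 CPM. In oligodendrocyte-like nuclei it was 1315, 898 and 296 CPM in females and 359, 1516 and 1308 in males. The low libraries, female pool 3 and male pool 1, are those of label set A, and both lay below their own D1 level, while all 4 set B libraries lay above it.

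The fitted log2 fold change of 1.16 (SE 0.19, edgeR adjusted p = 7.67e-08) between oligodendrocyte-like and D1 MSN-like nuclei therefore joins opposite directions. The call was lost without male pool 2 (0.98), without male pool 3 (0.91) and in a fit of these classes alone (0.93, edgeR adjusted p = 0.0394). By library the log2 ratio was -0.81 and -0.38 in set A and 0.83 to 1.70 in set B. In a fit added after this was seen, the class difference varied with the label set by 2.20 (SE 0.34, edgeR adjusted p = 0.00831), where 0.879% of 11600 genes were called. Marker levels of this class are given by set. The summed level of the 5 oligodendrocyte markers was 6010 and 7266 CPM in set A and 6902 to 11910 in set B, with overlap. Bcas1, which marks newly forming oligodendrocytes, stood at 1836 and 1919 CPM in set A and 960 to 1626 in set B. The other committed precursor markers used here did not separate the sets. Enpp6 was 114 and 136 CPM in set A and 18.7 to 131 in set B. Tmem163 was 119 and 87.7 CPM in set A and 57.1 to 131 in set B. Gpr17 had no UMI in any library. The labels of set A alone mention a pre-mRNA matrix, and the sources do not state how intronic reads were counted in either set. The part of these in the result was not tested. In both sets OPC-like nuclei were below oligodendrocyte-like nuclei (-3.65, SE 0.25, adjusted p = 3.43e-22, lower in 6 of 6 libraries).

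**Figure D3:**
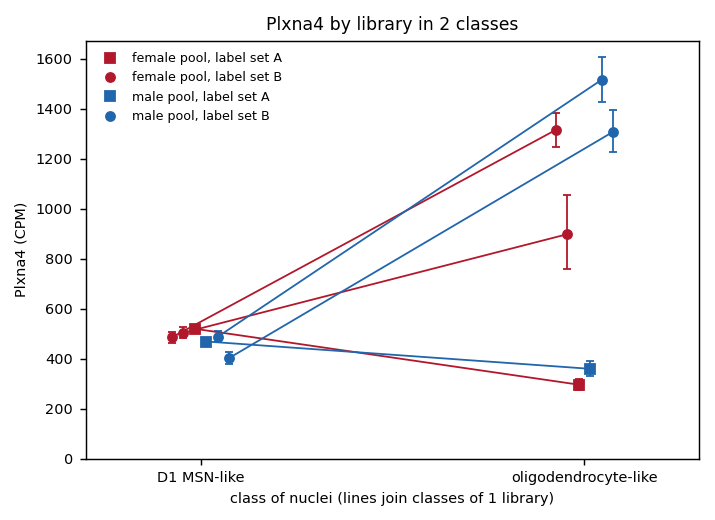
Plxna4 CPM (linear axis) in D1 MSN-like and oligodendrocyte-like nuclei, with lines joining the classes of 1 library and bars for the exact 95% interval of the count. The lines of the set A libraries (squares) go down, to 296 and 359 CPM, and those of set B (circles) go up, to between 898 and 1516.

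Nrp2, the neuropilin bound by Sema3c and Sema3f, was highest in Drd3 MSN-like nuclei. Its level there was 765, 692 and 691 CPM in females and 664, 691 and 753 in males, against 29.8 to 59.98 in D1 MSN-like nuclei. The groups were far apart, with a log2 fold change of 3.88 (SE 0.16, edgeR adjusted p = 3.15e-35). Among tested classes cluster 1 came next at 282 to 407 CPM (2.57, SE 0.16) and cluster 7 at 174 to 273 (2.06, SE 0.16). Sst/Npy interneuron-like nuclei (1.32, SE 0.25) and cluster 9 (1.33, SE 0.18) followed. Of the classes not tested, glutamatergic neuron-like nuclei stood at 218 CPM in female pool 3 and 205 in male pool 1. Cholinergic neuron-like nuclei held 116 CPM over all libraries. After thinning to 1000 UMIs, 47.9% of 1172 Drd3 MSN-like nuclei had an Nrp2 UMI (95% Wilson interval 45.02% to 50.7%), against 1.82% of 3084 oligodendrocyte-like nuclei (unthinned 77.5% and 3.17%, at median depths of 2750 and 1713 UMIs). In oligodendrocyte-like nuclei Nrp2 was called lower (-1.30, SE 0.28), with female pool 2, at 37.4 against 29.8 CPM, as the exception.

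Nrp1, the neuropilin of Sema3a and also a co-receptor for VEGF, followed another order. Cluster 7 stood at 191, 195 and 209 CPM in females and 209, 197 and 145 in males, and D1 MSN-like nuclei at 175, 148 and 182 and at 146, 143 and 138. Cluster 7 was above D1 in 6 of 6 libraries, yet the ranges overlapped and the difference did not pass (0.17, SE 0.11, edgeR adjusted p = 0.223). Astrocyte-like nuclei, at 93.7 to 158 CPM, kept a high Nrp1 while their Plxna2 and Plxna4 were low. Nrp1 was called lower in oligodendrocyte-like (-3.55, SE 0.20), OPC-like (-2.91, SE 0.25), Sst/Npy interneuron-like (-2.80, SE 0.25) and Drd3 MSN-like nuclei (-2.35, SE 0.19) and in clusters 19 (-2.45, SE 0.18) and 10 (-1.31, SE 0.14). Without female pool 3 the values were -4.16 in oligodendrocyte-like and -3.42 in Sst/Npy interneuron-like nuclei, and in Drd3 MSN-like nuclei the value was -1.71 at resolution 0.6. Vascular-like nuclei, not tested, held Nrp1 at 239 CPM over all libraries. In Drd3 MSN-like nuclei, then, Nrp1 was low and Nrp2 high relative to D1 MSN-like nuclei, and both changes held in 6 of 6 libraries.

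**Figure D4:**
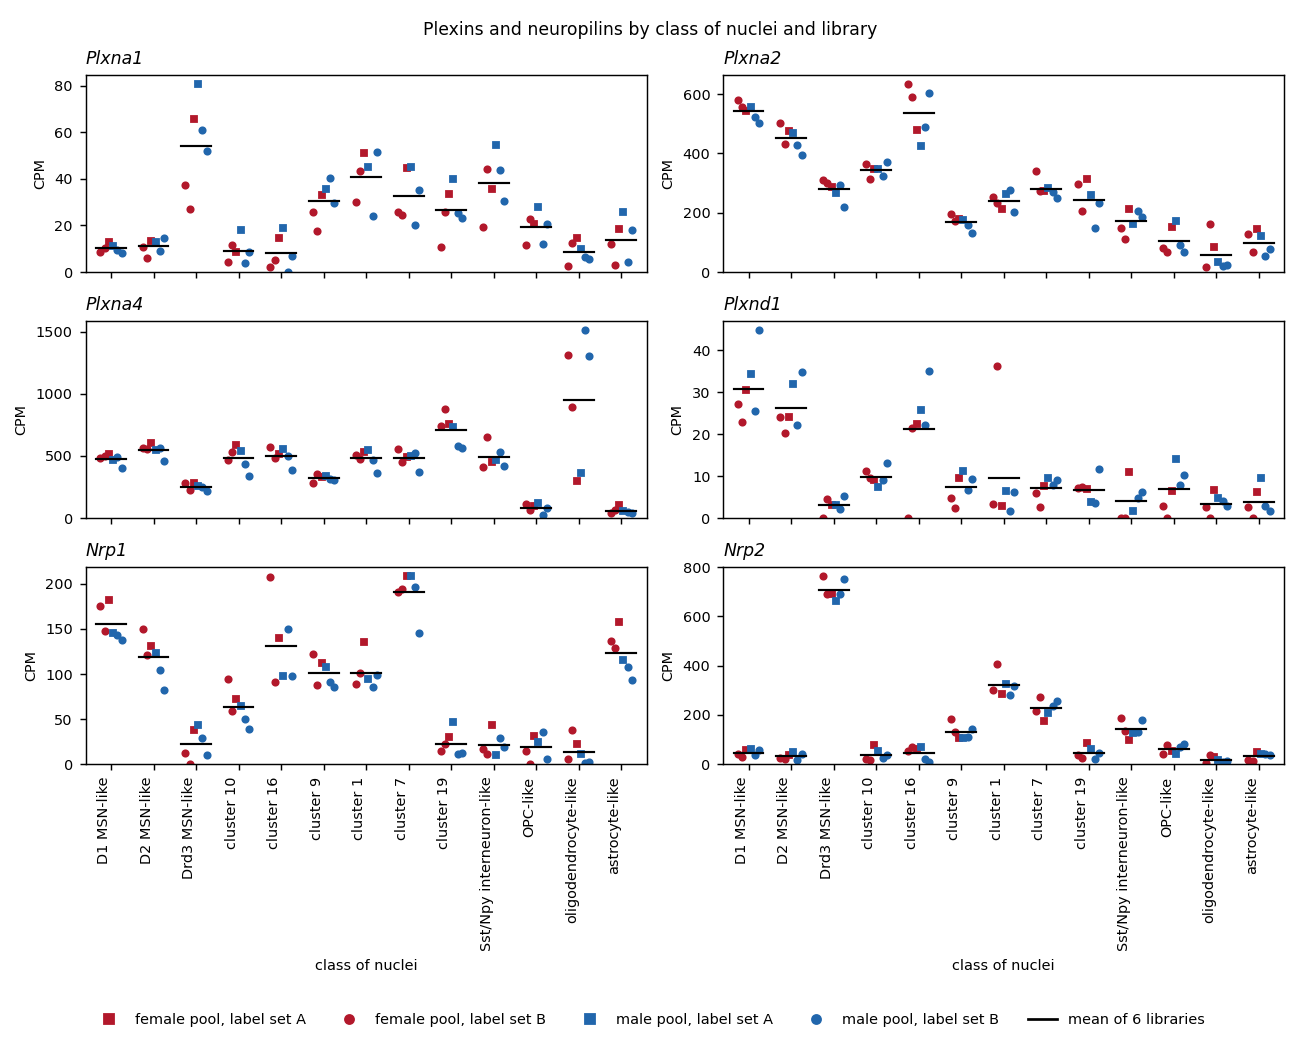
CPM (linear axis) of the 4 plexins and 2 neuropilins in 13 classes of nuclei, 1 point per library coloured by sex and shaped by label set, with a bar at the mean of 6 libraries. Plxnd1 and Plxna2 lead in D1 MSN-like nuclei among these 13 classes (means 30.9 and 544), Plxna1 and Nrp2 in Drd3 MSN-like nuclei (54.0 and 709), and Plxna4 spreads from 296 to 1516 in oligodendrocyte-like nuclei.

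Neighbouring classes in the order of levels were also set side by side by an exact paired permutation test over the 6 libraries, for 120 pairs. The smallest p this test can give is 0.031, and 17 pairs reached it, but none passed after adjustment over the 120 pairs (smallest adjusted p = 0.221). With that floor none could pass unless most of the 120 pairs reached it, so the adjusted values cannot decide the order. The neighbours were also set by sorting these same levels. Among those 17 were OPC-like nuclei above cluster 9 for Sema3d, cluster 1 above cluster 9 for Sema3c, Drd3 MSN-like nuclei above cluster 1 and cluster 1 above cluster 7 for Nrp2, and D2 MSN-like nuclei above cluster 10 for Plxna2, pairs whose ranges did not overlap. The top 3 classes of Plxna1 and the top 5 of Sema3e and Sema3a each held only neighbours that this test did not separate at its smallest p.

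D1 MSN-like nuclei were themselves of 2 clusters, 5 and 11, and the libraries mixed them unequally: 94.9% of the D1 nuclei of female pool 2 were of cluster 5. Plxna2 was lower in cluster 5 (414 to 546 CPM) than in cluster 11 (581 to 722) in every library. Nrp2 was higher in cluster 5 in every library, at 62.7, 31.0 and 86.3 CPM in females and 114, 58.9 and 93.2 in males, against 12.1 to 39.6 in cluster 11. These values are a description, with no test, and they bear on the D1 level against which other classes were set.

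Of the 46 other pathway genes 38 passed the filter in the class contrasts. None of the 38 was called between D2 and D1 MSN-like nuclei by edgeR or DESeq2. As edgeR called only 1.52% of all genes there, this count is near that share. An unadjusted p under 0.05 was met by 7 in edgeR and 4 in DESeq2. The share of all genes under that p is not given here, so these counts are not read as a result. The median log2 fold change of the 38 was -0.03, beside 0.02 over all genes. Below, each bracket first gives the share of all genes that edgeR called in that contrast. In Drd3 MSN-like nuclei 6 were higher and 2 lower (15.8%, median -0.06, beside 0.06). In OPC-like nuclei 12 were higher and 6 lower (28.0%, 0.14, beside 0.03). Astrocyte-like nuclei had 10 and 9 (35.5%, 0.32, beside 0.07) and oligodendrocyte-like nuclei 12 and 12 (39.9%, -0.25, beside 0.08). Sst/Npy interneuron-like nuclei had 7 higher and 1 lower (16.8%, 0.27, beside 0.03). Cluster 1 had 8 and 1 (18.7%, 0.18, beside 0.06) and cluster 7 had 7 and 0 (12.6%, 0.21, beside 0.06). Cluster 19 had 9 and 3 (17.4%, 0.36, beside 0.04) and cluster 9 had 4 and 3 (8.99%, 0.08, beside 0.05). Cluster 10 had 4 and 1 (5.75%, 0.15, beside 0.03) and cluster 16 had 1 and 0 (4.19%, -0.03, beside -0.06). Between OPC-like and oligodendrocyte-like nuclei 15 were higher and 7 lower (26.4%, 0.25, beside -0.07).

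Among these the transmembrane ligands Sema5a and Sema5b marked OPC-like nuclei, at 562 ± 137 and 156 ± 41.5 CPM (SD, n = 6), against 34.7 ± 15.7 and 2.08 ± 2.24 in oligodendrocyte-like nuclei (log2 fold changes 3.62 and 6.40, SE 0.20 and 0.32). Sema5b was also higher in Drd3 than in D1 MSN-like nuclei, at 86.6 ± 32.1 against 2.61 ± 1.54 CPM (4.92, SE 0.21), and in clusters 10 (3.96, SE 0.22), 9 (3.01, SE 0.24) and 16 (1.53, SE 0.45), the last at a mean of 5.07 CPM that was 2.02 without male pool 1. Sema5a was higher than in D1 MSN-like nuclei in clusters 19 (2.99, SE 0.18), 10 (2.82, SE 0.17), 1 (2.49, SE 0.17), 7 (2.35, SE 0.17) and 9 (2.28, SE 0.17). Plxnb3, a receptor for Sema5a, stood at 88.3 ± 45.3 CPM in oligodendrocyte-like, 80.5 ± 37.2 in OPC-like and 29.5 ± 15.0 in astrocyte-like nuclei, against 1.22 ± 0.251 in D1 MSN-like nuclei. Plxnb1, the receptor of Sema4d, averaged 0.178 ± 0.290 CPM in D1 MSN-like nuclei, too low for a fold, and 40.1 ± 7.38 CPM in astrocyte-like, 7.88 ± 4.20 in oligodendrocyte-like and 12.3 ± 21.9 in OPC-like nuclei. The OPC-like mean rested on male pool 3, at 56.6 CPM, and was 3.41 without it. It was also called higher in cluster 19 and Sst/Npy interneuron-like nuclei, at 1.58 and 0.951 CPM, or 0.424 without female pool 2 and 0.492 without female pool 1.

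Farp1, an exchange factor for Rac that binds plexin-A receptors, stood at 19.7 ± 5.86 CPM in D1 MSN-like nuclei. It reached 982 ± 136 CPM in astrocyte-like nuclei (5.66, SE 0.15), 348 ± 29.4 in cluster 19 (4.09, SE 0.15), 256 ± 36.8 in Sst/Npy interneuron-like nuclei (3.60, SE 0.16) and 229 ± 39.9 in cluster 1 (3.42, SE 0.14). Clusters 7, 9 and 10 and Drd3 MSN-like nuclei had Farp1 log2 fold changes of 3.11, 2.93, 2.13 and 2.45. Dpysl3, of the collapsin response mediator family, was lower in Drd3 than in D1 MSN-like nuclei (log2 fold change -2.79, SE 0.39), at 20.6 ± 5.24 against 164 ± 99.4 CPM. Its level in D1 MSN-like nuclei thus varied widely between libraries. Dpysl3 was 3.57 higher in OPC-like than in oligodendrocyte-like nuclei on the log2 scale (SE 0.48). Sema3f, the class 3 ligand of Nrp2, was lower in Sst/Npy interneuron-like than in D1 MSN-like nuclei (log2 fold change -2.21, SE 0.40). Sema6a, a membrane-bound ligand of Plxna2 and Plxna4, was higher in oligodendrocyte-like nuclei (78.6 ± 21.2 against 7.25 ± 1.59 CPM in D1 MSN-like nuclei; 3.65, SE 0.13) and in cluster 7 (1.80, SE 0.14). Limk1, a kinase that acts on cofilin, was higher in cluster 1 (2.59, SE 0.16).

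The genes whose levels over the 13 classes were most like those of a member were named by the Pearson correlation of log2(CPM + 1) over class means, among 10065 genes with at least 20 CPM in a class. These are descriptions over 13 points that share libraries. For Sema3d they were Nsmf, Chst5 and Has2 (r = 0.917, 0.902 and 0.897), all highest in OPC-like nuclei, and for Sema3c Asb18, Fgf11 and Cd47 (0.824, 0.816 and 0.810). For Sema3e they were Tnrc6c, Wdtc1 and LOC102556347 (0.845, 0.839 and 0.828) and for Sema3a Gas2, Gmds and LOC100362814 (0.913, 0.910 and 0.908). Plxnd1 was most like Mpp7, Pik3c2g and Myo3a (0.939, 0.931 and 0.927), Plxna2 like Camkk2, Selenoi and Ndrg4 (0.946, 0.940 and 0.936) and Plxna4 like Jakmip3, Dixdc1 and Srcin1 (0.945, 0.931 and 0.895). Plxna1 was most like Kcnj6, Zfp329 and Plcb4 (0.949, 0.931 and 0.927) and Nrp1 like Ell, LOC102555377 and Tmem120a (0.869, 0.855 and 0.846). For Nrp2 the third gene was a member, Plxna1 (r = 0.887), after Stac and Smg6 (0.902 and 0.894).

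Females and males were compared with the label set as a term, since sex is the design of the series. Over 14 fits (all nuclei and 13 classes) the 10 genes gave 106 tests that passed the filter on low counts, of 140 possible. None was called at an adjusted p under 0.05 by edgeR, where 0.103% of all tests of those fits were called, and none by DESeq2. The share of all genes called was 0.0419% in all nuclei, 0.0529% in D1 MSN-like, 0.0575% in D2 MSN-like, 0.0740% in astrocyte-like and 0.0727% in oligodendrocyte-like nuclei, and 0.700% in cluster 16. An unadjusted p under 0.05 was met by 11 tests in edgeR, each with the higher level in females, and by 8 in DESeq2. The share of all genes under that p is not given here, so these counts are not read as a result about the 10 genes. The fits share their pools, so these tests are not independent. A p that misses the threshold does not show that the sexes had the same level.

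Nrp1 made up 5 of those 11 tests, and its fitted difference was above 0 in 10 of 11 fits. In all nuclei it stood at 125, 118 and 123 CPM in females and 108, 102.5 and 89.5 in males. Every female pool lay above every male pool, with a log2 fold change of 0.35 (SE 0.14, edgeR adjusted p = 0.639), 0.24 within set A and 0.42 within set B. With 3 against 3 pools the smallest p an exact test can give is 0.1, and the share of all genes without overlap is not given here. A lack of overlap between the sexes, here and below, is thus a description only. In D1 MSN-like nuclei the difference was 0.28 (SE 0.12, adjusted p = 0.674) and in astrocyte-like nuclei 0.41 (SE 0.18, adjusted p = 0.945), again with no overlap. The remaining tests of these 5 overlapped between the sexes, with 0.39 in D2 MSN-like nuclei (SE 0.16, 0.09 within set A and 0.57 within set B) and 1.46 in oligodendrocyte-like nuclei (SE 0.59). Over all nuclei the alternatives gave adjusted p from 0.305 to 1.

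Sema3e was nearest to a difference in D2 MSN-like nuclei, with the values by library given above. The female pools, at 111 ± 11.1 CPM (SD, n = 3), lay above the male pools, at 75.8 ± 12.8, and the log2 fold change was 0.55 (SE 0.16, edgeR adjusted p = 0.751), 0.42 within set A and 0.67 within set B. In D1 MSN-like nuclei the sexes overlapped. The test of whether the sex difference itself differed between D2 and D1 gave 0.36 for Sema3e (SE 0.09, unadjusted p = 0.000555, edgeR adjusted p = 0.9998), and 0.87 for Sema3c (SE 0.32, unadjusted p = 0.011). Neither passed; these were the 2 of 10 genes under an unadjusted 0.05, and 0% of 12523 genes were called in that test.

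In cluster 16 Sema3e was 373, 371 and 162 CPM in females and 166, 206 and 161 in males, so only female pools 1 and 2 were high (0.68, SE 0.25, edgeR adjusted p = 0.315; 0.01 within set A and 1.15 within set B). It passed without female pool 3 (adjusted p = 0.0171) and without male pool 1 (0.0157), which leave 1 library of set A. Plxna2 in oligodendrocyte-like nuclei was 15.6, 162 and 83.8 CPM in females and 33.0, 19.8 and 23.7 in males (1.30, SE 0.59, adjusted p = 0.938). It passed without female pool 1 (0.00215) and with no filter on low counts (0.00753), and female pool 2, its highest library, is the one with the MSN marker sum of 1353 CPM named above. The other pathway genes gave 1 call in the sex fits. Plxnc1, a plexin that binds Sema7a, was higher in females in cluster 16 at 298, 167 and 124 CPM against 67.7, 83.5 and 84.2 in males (1.32, SE 0.28, edgeR adjusted p = 0.0113), by 0.91 in set A and 1.53 in set B. That call was made in 7 of 13 alternatives.

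**Figure D5:**
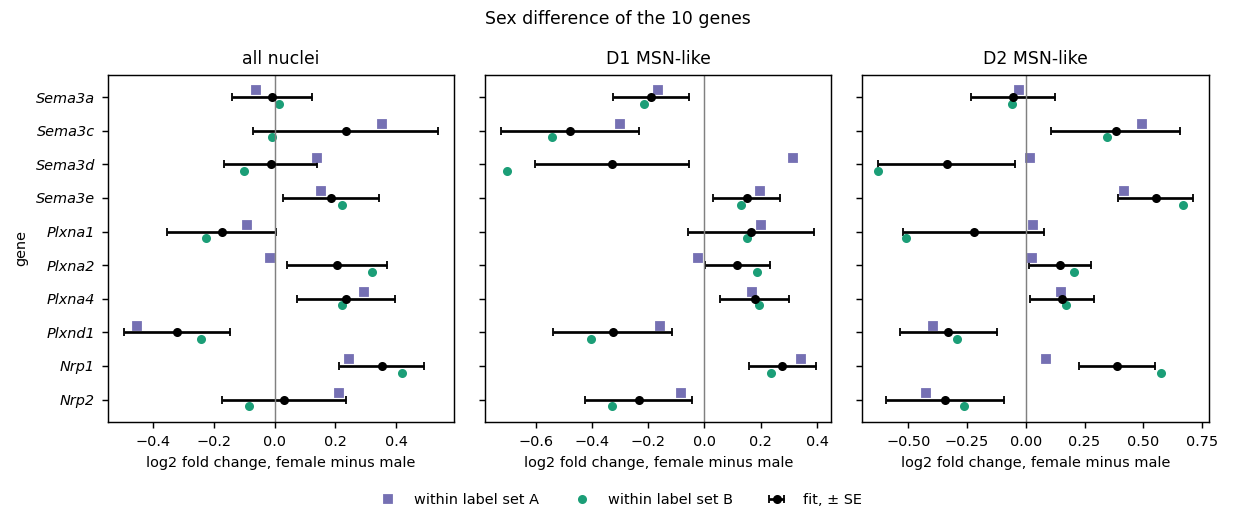
Log2 fold change, female minus male, of the 10 genes in all nuclei, D1 and D2 MSN-like nuclei (black, ± SE of the fit), with the differences within label set A (squares) and B (circles). Nrp1 lies above 0 in each panel (0.35, 0.28 and 0.39), Plxnd1 lies below 0, and no value passed the adjusted threshold.

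The label set itself, balanced over sex, went with larger differences. Its term was called in 16 of the 106 tests of the 10 genes, 3 higher and 13 lower in set B, where 20.7% of all tests were called (31.1% in D1 MSN-like, 26.8% in D2 MSN-like and 12.5% in oligodendrocyte-like nuclei, and 15.8% in cluster 10). Sema3a was lower in set B in D1 MSN-like nuclei (54.0 against 85.8 CPM; -0.70, SE 0.14, edgeR adjusted p = 0.00435) and in D2 MSN-like nuclei (29.3 against 47.1; -0.73, SE 0.18, adjusted p = 0.0119). Nrp2 was lower in set B in cluster 10 (23.9 against 64.7 CPM; -1.40, SE 0.28, adjusted p = 0.00214). Plxna4 in oligodendrocyte-like nuclei had the largest such difference of the 16 (2.07 higher in set B, SE 0.28, adjusted p = 0.00173). The labels do not say what the sets stand for, and depth, mitochondrial share and label set cannot be told apart.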

How the data were processed

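Nuclei of 6 pools were measured with the 10x Genomics 3' kit, version 3.1, per the labels. The authors deposited raw UMI counts per gene and barcode from Cell Ranger 4.0.0, per the file headers, and the submitters' processing notes name build rn6. The gene annotation and the treatment of introns are not given in the sources used here.

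Nuclei were kept with at least 500 UMIs, 300 genes and under 5% mitochondrial UMIs. Scrublet's own thresholds marked from 0.0114% to 39.2% of nuclei per library, so the top 0.8% per 1000 nuclei by score was removed instead. Leiden clustering (scanpy 1.11.5, 3000 variable genes, 30 components, 20 neighbours, resolution 1) gave 28 clusters, named "-like" from at least 3 markers of a list that were higher than elsewhere, unless at least 5 of the top 10 genes by fold were immediate early genes (cluster 16, with 4 of 5 D2 MSN markers higher); this naming rule was set after seeing the data. Clusters with markers of several classes (6603 nuclei, 19.2%) and classes under 20 nuclei in any library were not tested.

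Counts were summed per library and class and tested with edgeR 4.0.16 (TMM, filterByExpr, quasi-likelihood, Benjamini-Hochberg over all genes). Sex fits had the label set as a term, class contrasts the library as a block and 1 estimate of the spread shared by all classes. DESeq2 1.42.0 and other settings were alternatives; the label set by class fit and within-set values were added after seeing the data. The fits were tested on simulated data. Libraries of 1 sex differed by a chi-square of at least 24.7 per degree of freedom, so none was a copy of another of its sex. Female and male libraries were not compared in this way. The members and gene lists were chosen with earlier results of these data known. Named genes were all 10 members, up to 3 called pathway genes of largest change per contrast, all called for sex, and the 3 most alike genes per member.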

Additional observations from a re-analysis of the deposited data

Results flagged for a closer look

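The difference of Plxna4 between oligodendrocyte-like and D1 MSN-like nuclei changed direction with the label set, by 2.20 on the log2 scale (set B minus set A, SE 0.34, edgeR adjusted p = 0.00831). Both set A libraries were lower in oligodendrocyte-like nuclei and all 4 set B libraries were higher. The fit behind this value was added after the data were seen. In the same fit the other 9 genes had adjusted p from 0.394 to 0.939.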

How the results depend on the processing

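The number of the 10 genes called in each of the 13 class contrasts stayed within 1.5 times under every alternative that could be run (161 values), and with 1 library left out it ranged from 1 to 1 in D2, 7 to 8 in Drd3 MSN-like, 6 to 6 in OPC-like and Sst/Npy interneuron-like, 5 to 6 in astrocyte-like and oligodendrocyte-like nuclei, 5 to 7 between OPC-like and oligodendrocyte-like nuclei, and from 3 to 8 in the clusters with calls. No called value reversed. Of 1606 alternative values of single genes in class contrasts 12 lost and 21 gained a call. For sex in all nuclei, 7 genes were called in the main setting, 14 with no filter on low counts, 16 with DESeq2, 3 with the replicate block, and 3 to 12 with 1 library left out. Over all fits 0 tests of the 10 genes were called, 1 with no filter and 0 to 1 with 1 library left out; 0 were called with the replicate block. The replicate numbers do not pair the samples: the deviations of same-numbered libraries correlated at -0.758, 0.254 and -0.660. In the D1 and D2 interaction 0 of the 10 genes were called in every alternative. At under 1% mitochondrial UMIs female pool 2 kept too few nuclei, so only the all-nuclei fit was run there. At resolution 0.6 OPC-like nuclei joined a mixed cluster and numbered clusters were not matched. A contrast of Sst/Npy with Pvalb/Pthlh interneuron-like nuclei was not made, since no cluster met the latter name. Of 1340 alternative levels 9 moved by more than the spread between libraries. Cluster 16, with 25 nuclei in 2 libraries, limits the depth of its values.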
